A study of Mus musculus with 6 samples.

Results

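The results concern 10 genes of endothelial junctions and endothelial identity in the mouse retina: Cldn5, Ocln, Tjp1, Cdh5, Pecam1, Esam, Tie1, Eng, Klf2 and Plvap. They were taken by name, through the RefSeq identifier that each array probe carries, and not by a threshold on their values. Earlier results of these data were known when the genes were chosen. The arrays hold 12 probes for these 10 genes, of 39429 probes in all, and all 10 genes were among the 24075 genes tested. Ocln and Plvap have 2 probes each and the other 8 genes have 1.

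Retinal RNA was hybridised to 6 dual-colour arrays, of which 3 tested SH-42 and 3 tested SH-80, compounds known here only by code name. In the SH-42 group, adult male C57BL/6 mice had SH-42 at 1 µM injected into the right vitreous, with the retina collected at day 7. The SH-80 group was treated in the same way with SH-80 at 1 µM, and the control group received phosphate-buffered saline (PBS). Each group had 12 mice, and 4 retinas were pooled per tube, so a value is that of a pool and spread between single animals was not measured. By the labels the green channel (Cy3) of every array carried RNA of the compound group and the red channel (Cy5) RNA of the control group. No array had its dyes swapped, so an effect of the dye on a gene remains in each ratio. All ratios below are log2 of Cy3 over Cy5, and "higher" and "lower" are said of Cy3 relative to Cy5. The ratios in the authors' deposited value table run the other way, Cy5 over Cy3, and which channel truly held the compound RNA is not settled. If the channels were the reverse of their labels, every sign below would turn. The labels do not say whether arrays shared control pools: 12 control mice in pools of 4 would make 3 pools for 6 arrays. Replicates may thus share RNA, and the p-values measure the spread between these arrays only.

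Endothelial cells of retinal vessels form the inner blood-retinal barrier. Their tight junctions are built of claudins and occludin anchored to the scaffold protein ZO-1, and adherens junctions of VE-cadherin lie beside them. Retinal vessels have few fenestrations and carry little Plvap, the protein of fenestral diaphragms, while the vessels of the neighbouring choroid are fenestrated and rich in it. In a whole-retina pool the endothelium is a minor cell population, so fewer endothelial cells and less RNA per endothelial cell cannot be told apart. Tjp1 and Ocln are also used by epithelia, the pigment epithelium among them, and Pecam1 and Esam by platelets, so not every member is a marker of endothelium alone.

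Of the 10 genes, 6 have a promoter in the RefSeq table used here (build GRCm38.p6). The promoters of Cldn5 and Klf2 are shown because these genes had the largest positive mean ratios on the SH-80 arrays. Each sequence gives the 250 bases before the annotated start, 5′ to 3′ on the strand of the gene. Capitals mark 2 motifs on either strand, the CACCC box (CACCC or GGGTG), which KLF factors are known to bind, and the GC box (GGGCGG or CCGCCC). These motifs do not overlap each other in the stretches shown.
Cldn5, chr16:18776597-18776846, plus strand: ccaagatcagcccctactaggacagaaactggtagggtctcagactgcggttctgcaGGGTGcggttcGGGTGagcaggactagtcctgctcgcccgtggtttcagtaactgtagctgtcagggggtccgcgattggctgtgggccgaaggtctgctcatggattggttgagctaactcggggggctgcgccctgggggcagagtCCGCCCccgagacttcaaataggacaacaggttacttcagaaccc
Klf2, chr8:72318812-72319061, plus strand: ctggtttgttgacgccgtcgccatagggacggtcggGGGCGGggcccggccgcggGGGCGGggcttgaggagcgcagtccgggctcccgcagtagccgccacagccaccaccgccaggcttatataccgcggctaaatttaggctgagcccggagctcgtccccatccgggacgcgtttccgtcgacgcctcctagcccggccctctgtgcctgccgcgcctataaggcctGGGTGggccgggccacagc
The Cldn5 stretch held 2 CACCC boxes and 1 GC box, and the Klf2 stretch 1 CACCC box and 2 GC boxes. The 6 genes have 7 promoter windows in the table, since Ocln has 2 that overlap. The CACCC box was found in 6 of these 7 windows, all but the second of Ocln, and in 52% of the 32851 windows in the table. The GC box was found in 5 of the 7 (those of Cldn5, Klf2 and Tjp1 and both of Ocln), and in 32.7% of all windows. Both motifs are common, and a match is a string of letters, not a measured binding site.

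The arrays were not alike. On SH-42 replicate 1 the Cy5 channel stood apart: over 18228 genes bright in both channels, its correlation with the other Cy5 channels was 0.9468 to 0.9655, against 0.9884 to 0.9974 among the others, whereas Cy3 channels correlated at 0.9972 to 0.9994 in all pairs. SH-42 replicates 1 and 2 were on slide 1, and SH-42 replicate 3 and all SH-80 arrays on slide 2. Log ratios had an SD over genes of 0.157 to 0.499 per array. No spot was saturated (0 on each array). Markers of rods (6 of 6) and of Muller glia and astrocytes (8 of 8) were well above background in both channels of all 6 arrays. Endothelial signal was also present. Of the 10 members, 8 were well above background in both channels of every array. Tie1 reached that in Cy3 on 1 array only and in Cy5 on all 6, and Ocln on 0 of 6 arrays in Cy3 and on all 6 in Cy5 by its brighter probe.

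**Figure D1:**
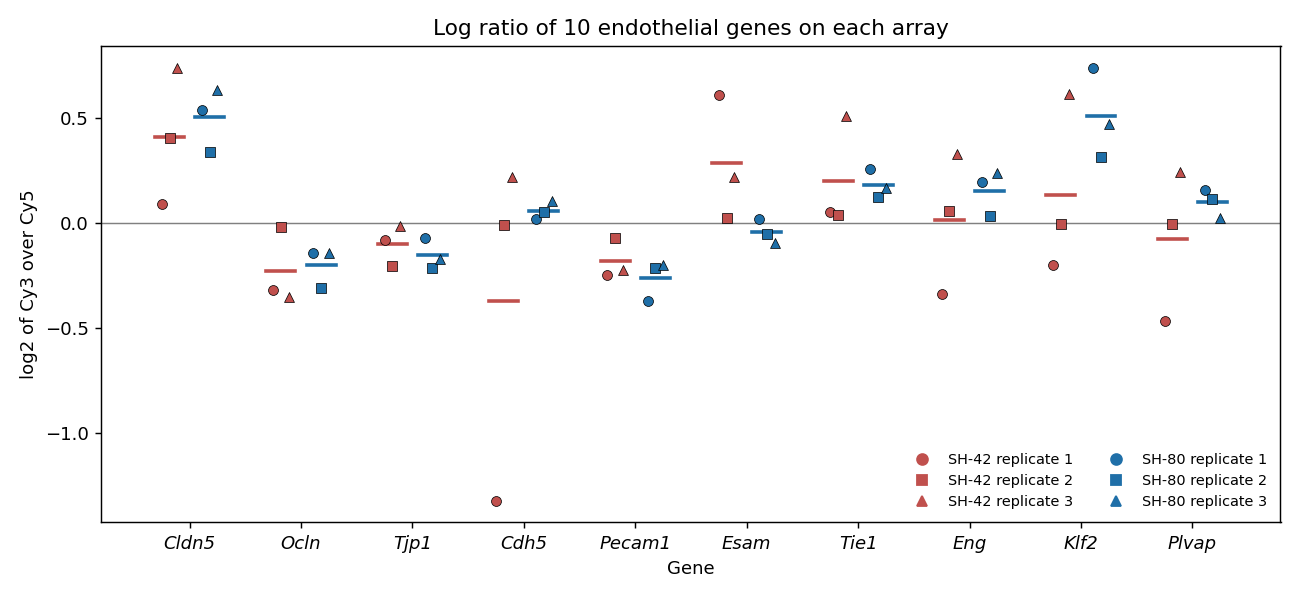
Log2 of Cy3 over Cy5 for each of the 10 genes (x axis) on each of the 6 arrays, with SH-42 in red left of SH-80 in blue, marker shape by replicate and a bar at the mean of 3 arrays. Cldn5 lies above 0 and Pecam1 and Tjp1 lie below 0 on all 6 arrays, Ocln and Tie1 were dim in Cy3, and Cdh5 on SH-42 replicate 1 is the lowest point at -1.32.

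Among the tight junction genes, Cldn5 lay above 0 on every array, whereas Tjp1 lay below 0 on every array. Ocln was too dim in Cy3 for more than a bound, and with median centring its mean ratio turned to 0.079 for SH-42 and 0.13 for SH-80. Cldn5 encodes the claudin that seals the paracellular cleft of barrier vessels. Its log2 ratio was 0.088, 0.40 and 0.74 on SH-42 replicates 1 to 3 and 0.54, 0.33 and 0.63 on SH-80 replicates 1 to 3. The groups overlapped, and SH-42 replicate 1 was the lowest of the 6 arrays. The fitted ratio was 0.41 ± 0.126 (log2 ± SE, n = 3) for SH-42, which missed the threshold of 0.05 (limma adjusted p = 0.156). For SH-80 it was 0.50 ± 0.126, a fold of 1.42, and passed (limma adjusted p = 0.0476). The signal itself varied little in Cy3, from 10.20 to 10.42 normalized log2 units over the 6 arrays, and more in Cy5, from 9.59 on SH-42 replicate 3 to 10.21 on SH-42 replicate 1.

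Ocln encodes occludin, a transmembrane protein of tight junctions. By its brighter probe (A_51_P486155) the log2 ratio was -0.32, -0.018 and -0.35 on the SH-42 arrays and -0.15, -0.31 and -0.14 on the SH-80 arrays. The groups overlapped. Since Cy3 was not well above background on any array, only a bound on the mean can be given. On average over the SH-42 arrays Cy5 was at least 1.02-fold brighter than Cy3, and no fold is given for SH-80. This bound holds under loess only, as the sign turned with median centring. The fits missed the threshold, with limma adjusted p = 0.18 for SH-42 and 0.14 for SH-80. The other probe (A_55_P2055694) was well above background in neither channel of any array (0 of 6 in each) and was not used in the fit. Its ratios ran from -0.33 to 0.18, with both signs.

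Tjp1 encodes ZO-1, the scaffold that ties claudins and occludin to actin. Its ratio was -0.081, -0.21 and -0.016 on the SH-42 arrays and -0.073, -0.21 and -0.17 on the SH-80 arrays. All 6 values were negative and the groups overlapped. The fitted ratio was -0.10 ± 0.0616 for SH-42 (limma adjusted p = 0.348) and -0.15 ± 0.0616 for SH-80 (adjusted p = 0.133). Tjp1 also had the narrowest spread in both channels, 0.071 log2 units in Cy3 and 0.186 in Cy5 over the 6 arrays.

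Of the 3 genes of endothelial adhesion, Pecam1 had a negative ratio on every array, while Cdh5 and Esam each had their most extreme ratio on SH-42 replicate 1. Pecam1 encodes CD31, an immunoglobulin-family adhesion molecule of endothelium, platelets and leukocytes. Its log2 ratio was -0.25, -0.072 and -0.22 on the SH-42 arrays and -0.37, -0.22 and -0.20 on the SH-80 arrays. The groups overlapped, and all 6 arrays were negative. The fit gave -0.18 ± 0.0647 for SH-42 (limma adjusted p = 0.179) and -0.26 ± 0.0647 for SH-80 (adjusted p = 0.0459). The SH-80 value, 1.2-fold lower in Cy3, passed. Its signal ran from 7.73 to 8.13 log2 units in Cy3 and from 7.95 to 8.44 in Cy5, and in each channel both slide 1 arrays lay below the 4 arrays of slide 2. The Cy3 signal was well above background on all 6 arrays but low, as Tie1, dim in Cy3, reached 7.51. The SH-80 call of Pecam1 thus rests on a low signal and a small ratio.

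Cdh5 encodes VE-cadherin, the adhesion protein of endothelial adherens junctions. Its ratio was -1.32, -0.0099 and 0.22 on SH-42 replicates 1 to 3, and 0.018, 0.054 and 0.10 on SH-80 replicates 1 to 3. A single array, SH-42 replicate 1, thus lay far below the other 5. The Cy3 signal there was 7.68, inside the range of 7.68 to 7.83 over all arrays, and the Cy5 signal was 9.002, against 7.60 to 7.74 on the other 5. The fitted ratio was -0.37 ± 0.275 for SH-42 (limma adjusted p = 0.43), and 0.10 without SH-42 replicate 1 (adjusted p = 0.385). For SH-80 it was 0.058 ± 0.275 (adjusted p = 0.9).

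Esam encodes an endothelial and platelet adhesion molecule that sits at tight junctions. Its ratio was 0.61, 0.022 and 0.22 on the SH-42 arrays and 0.019, -0.052 and -0.094 on the SH-80 arrays. The lowest SH-42 value just exceeded the highest SH-80 value, so Esam was the 1 member of 10 whose groups did not overlap, as was so for 13.5% of all genes. On SH-42 replicate 1 the Cy5 signal was 8.61, against 9.04 to 9.36 on the other 5 arrays, so Esam departed there in the direction opposite to Cdh5. The fitted ratio was 0.28 ± 0.11 for SH-42 (limma adjusted p = 0.196) and -0.042 ± 0.11 for SH-80 (adjusted p = 0.813).

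The receptors Tie1 and Eng did not pass in either comparison. Tie1 is an endothelial receptor tyrosine kinase that pairs with the angiopoietin receptor Tek. Its ratio was 0.053, 0.039 and 0.51 on the SH-42 arrays and 0.26, 0.12 and 0.17 on the SH-80 arrays. In Cy3 its probe was not well above background on any SH-80 array and was so on 1 of 3 SH-42 arrays, so these ratios rest on a dim signal and no direction or fold is given. The limma adjusted p was 0.278 for SH-42 and 0.252 for SH-80. Eng encodes endoglin, a co-receptor for TGF beta and BMP ligands. Its ratio was -0.34, 0.055 and 0.33 on the SH-42 arrays and 0.19, 0.032 and 0.24 on the SH-80 arrays. The SH-42 arrays lay on both sides of 0 and spanned the SH-80 arrays. The fit gave 0.015 ± 0.124 for SH-42 (limma adjusted p = 0.948) and 0.15 ± 0.124 for SH-80 (adjusted p = 0.415).

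Klf2, the transcription factor that endothelium induces under laminar flow, had the highest mean ratio of the 10 genes on the SH-80 arrays. Its values were -0.20, -0.0077 and 0.61 on SH-42 replicates 1 to 3, and 0.74, 0.31 and 0.47 on SH-80 replicates 1 to 3. SH-42 replicate 3 lay among the SH-80 arrays, and SH-42 replicates 1 and 2 lay below all of them. The fitted ratio was 0.51 ± 0.162 for SH-80, which missed the threshold (limma adjusted p = 0.0807), and 0.13 ± 0.162 for SH-42 (adjusted p = 0.623). Without SH-42 replicate 1, which enters the SH-80 test through the shared estimate of spread, Klf2 passed for SH-80 (adjusted p = 0.0282), as it did without SH-42 replicate 3 (adjusted p = 0.038). The Cy3 signal was steady, from 8.33 to 8.49, and the Cy5 signal ran from 7.66 on SH-80 replicate 1 to 8.61 on SH-42 replicate 1.

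Plvap, the diaphragm protein of fenestrated endothelium, was measured by probes that differed in sign. By the brighter probe (A_51_P414653) the ratio was -0.47, -0.0031 and 0.24 on the SH-42 arrays and 0.16, 0.11 and 0.025 on the SH-80 arrays. By the other probe (A_55_P2049186) it was negative on all 6 arrays, at -0.15, -0.016 and -0.17 on the SH-42 arrays and -0.28, -0.033 and -0.16 on the SH-80 arrays. The fit on the brighter probe gave -0.076 ± 0.128 for SH-42 (limma adjusted p = 0.723) and 0.097 ± 0.128 for SH-80 (adjusted p = 0.623). With the mean of both probes the SH-80 value was -0.030, so no direction is given for Plvap.

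**Figure D2:**
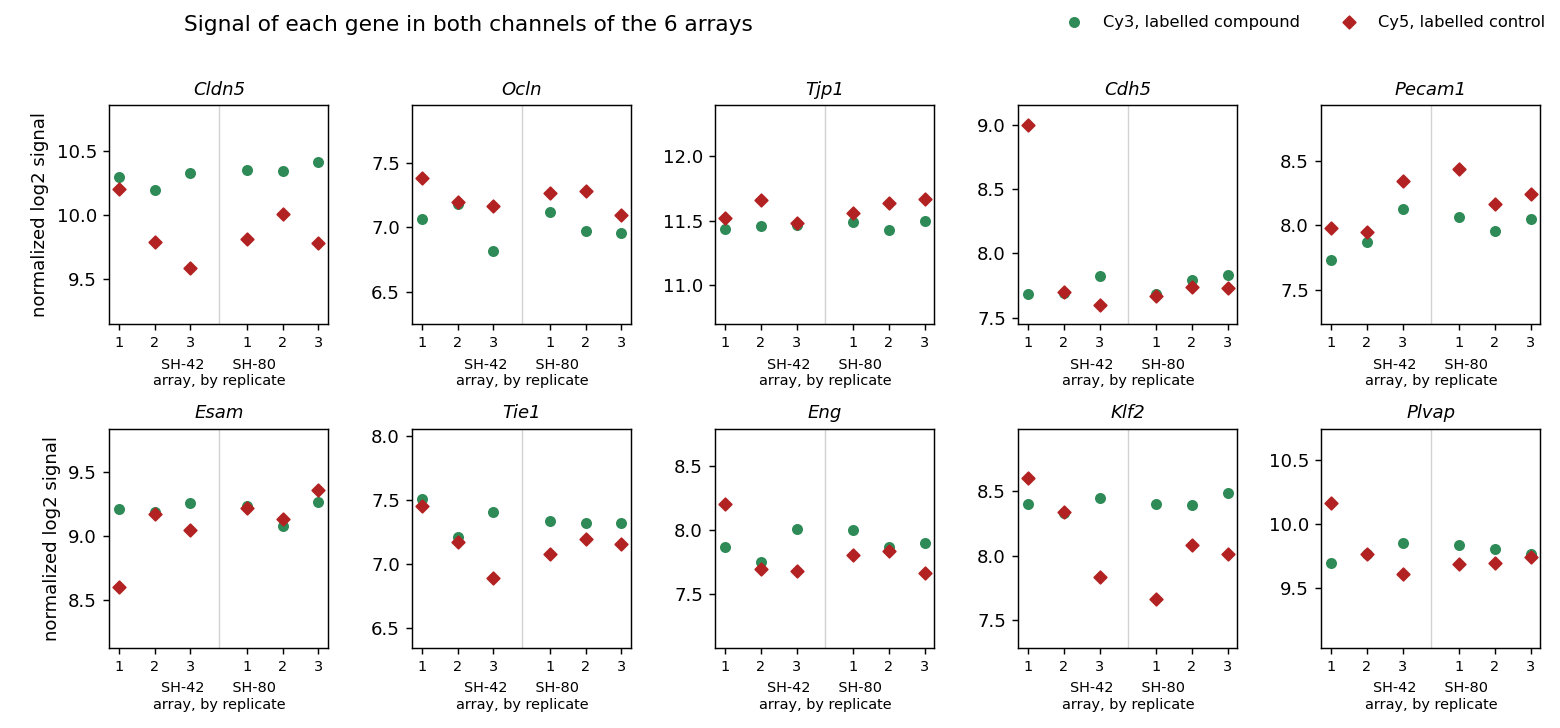
Normalized log2 signal (y axis, every panel spanning 1.7 units) of each gene in Cy3 (green circles, labelled compound) and Cy5 (red diamonds, labelled control) on each array (x axis, SH-42 replicates 1 to 3, then SH-80 replicates 1 to 3). Most of the spread between arrays is in Cy5, with Cdh5 at 9.002 on SH-42 replicate 1 and Klf2 at 7.66 on SH-80 replicate 1.

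For most of the 10 genes, as for most genes on the arrays, the spread between arrays lay mainly in the channel labelled control. The SD over the 6 arrays was larger in Cy5 than in Cy3 for 9 of 10 members, the exception being Ocln, which was dim in Cy3. That holds for 88.8% of the 18228 genes bright in both channels, so the members followed the rest of the arrays. For Cdh5 the SD was 0.0728 in Cy3 and 0.539 in Cy5, for Klf2 0.0528 and 0.341, and for Esam 0.068 and 0.258. The median over the bright genes was 0.0561 in Cy3 and 0.15 in Cy5. The Cy5 signal was highest on SH-42 replicate 1 for 7 of 10 members (Cldn5, Cdh5, Tie1, Ocln, Klf2, Eng and Plvap), as for 28.4% of all genes. The log ratio was lowest on that array for 5 of 10 (Cldn5, Cdh5, Klf2, Eng and Plvap), against 30.5% of all genes, and highest there for 1 (Esam), against 36.8%.

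Slides also divided the members. For 4 of 10 genes (Cdh5, Tie1, Klf2 and Plvap) the ratio on both arrays of slide 1 lay below that on all 4 arrays of slide 2, and for 0 of 10 it lay above. Over all genes these shares were 14.1% and 13.5%. Tie1 is counted although dim in Cy3, and Plvap enters by its brighter probe here and below. By its other probe Plvap lay at -0.15 and -0.016 on slide 1 and from -0.28 to -0.033 on slide 2, so the slides were not separated. SH-42 replicate 3, the SH-42 array on slide 2, had the highest ratio of the 6 arrays for Cldn5, Cdh5, Tie1, Tjp1, Eng and Plvap (brighter probe only). The share of all genes highest on that array was not counted, so this is not read as a trait of the members. Slide 1 held SH-42 arrays only, so slide and compound are separated through SH-42 replicate 3 alone. Within slide 2, where SH-42 replicate 3 stood against 3 SH-80 arrays, SH-42 minus SH-80 was 0.23 for Cldn5, 0.16 for Cdh5, 0.11 for Klf2, 0.18 for Eng and 0.14 for Plvap. Each of these 5 has the sign opposite to that over all 6 arrays, and 0 of 10 members passed there (limma, 2 at an unadjusted p under 0.05), as did 0 of all 24075 genes (767 at an unadjusted p under 0.05). The SH-42 arm of that contrast is 1 array with no replicate. Its spread is assumed to be that of the SH-80 arrays, so the p-values have no check on the SH-42 side.

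In SH-42 against control, 0 of 10 members passed (limma adjusted p, 4 at an unadjusted p under 0.05, of which 2 were higher and 2 lower). Of all genes, 0.598% passed (0.054% higher and 0.544% lower) and 23.4% had an unadjusted p under 0.05. The members' median ratio was -0.030 and that of all genes -0.034, and 5 were positive and 5 negative. Cldn5, Tie1 and Esam were above 0 on all 3 SH-42 arrays, as were 19% of genes, and Pecam1, Ocln and Tjp1 were below 0 on all 3, as were 28.2% of genes, with Tie1 and Ocln counted although dim in Cy3.

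In SH-80 against control, 2 of 10 members passed, Cldn5 higher and Pecam1 lower, and 5 had an unadjusted p under 0.05. Of all genes 14.7% passed, 4.61% higher and 10.1% lower, and 35.5% had an unadjusted p under 0.05, so these counts are near the background. The median ratio was 0.078 over the members and -0.031 over all genes, with 6 members positive. Cldn5, Cdh5, Tie1, Klf2, Eng and Plvap were above 0 on all 3 SH-80 arrays (29.4% of genes), and Pecam1, Ocln and Tjp1 below 0 on all 3 (38.9% of genes). Tie1 and Ocln are counted although dim in Cy3, and Plvap by its brighter probe, the other being negative on all 3. For SH-80, 0 of 10 members passed with slide as a fixed block, where 0% of all genes passed, and 0 of 10 with slide as a random block, where 9.83% of all genes passed. Fitted with slide as a fixed block, Cldn5 lay at 0.26 (adjusted p = 0.477) and Pecam1 at -0.23 (adjusted p = 0.42). The SH-80 arrays were all on the same slide, so the slide term came from the SH-42 arrays alone. These SH-80 values are shifted by it, and no slide effect was measured within SH-80. Both calls were also lost when any single SH-80 array or SH-42 replicate 2 was left out, and that of Pecam1 when SH-42 replicate 3 was left out. Without SH-42 replicate 1, 3 of 10 passed (Cldn5, Pecam1 and Klf2), as did 38.8% of all genes. Without SH-42 replicate 3, 2 of 10 passed (Cldn5, and Klf2 with adjusted p = 0.038), as did 13.2% of all genes.

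**Figure D3:**
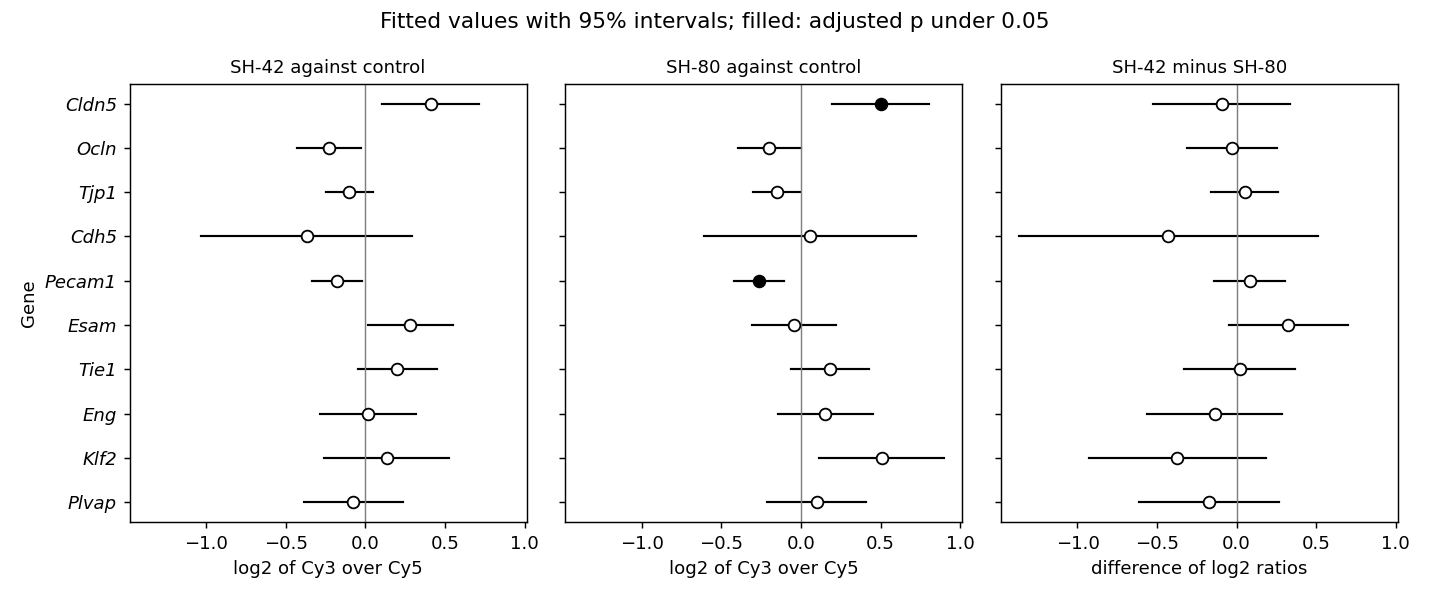
Fitted log2 ratio of each gene (points) with its 95% interval (lines) for each compound against its control and for the difference of the compounds, on one x axis in log2 units, with filled points where the adjusted p was under 0.05. Filled points are Cldn5 and Pecam1 for SH-80, and every interval of SH-42 minus SH-80 spans 0.

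The compounds were compared directly at their matched dose of 1 µM and day 7, as 1 pair, and the labels give no structure for either. In SH-42 minus SH-80, 0 of 10 members passed (limma, 0 at an unadjusted p under 0.05), and 0% of all genes passed (3.92% at an unadjusted p under 0.05). This contrast removes a dye effect common to all arrays. The intervals bound the difference rather than show that the compounds act alike. For Cldn5 the difference was -0.092 with a 95% interval of -0.52 to 0.34, and for Pecam1 0.082 with an interval of -0.14 to 0.30. For Tjp1 it was 0.052, from -0.16 to 0.26, the narrowest of the 10. The widest was that of Cdh5 at -0.43, from -1.37 to 0.51. Klf2 lay at -0.37, from -0.93 to 0.18, and Esam at 0.32, from -0.050 to 0.70. Eng (-0.14) and Plvap (-0.17) had intervals that also spanned 0. Ocln and Tie1 were dim in Cy3, and no direction is read from their differences. Without SH-42 replicate 1 the difference of Cdh5 was 0.047, that of Cldn5 0.069, that of Klf2 -0.20 and that of Esam 0.16.

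Other genes of the same cells and pathways were counted against the same background, in which 0.598% of all genes passed for SH-42 and 14.7% for SH-80. Among 19 measured genes of endothelium outside the 10 (of 20 listed), 0 passed for SH-42 and 1 passed for SH-80. It was Nos3, the endothelial nitric oxide synthase, lower at -0.29 ± 0.0686 (limma adjusted p = 0.0435) and negative on all 3 SH-80 arrays. Flt1, a VEGF receptor, lay at 0.47 ± 0.16 (adjusted p = 0.0917), and Ushbp1 at -0.20 ± 0.0575 (adjusted p = 0.0606). Clec14a, an endothelial lectin, had a Cy3 signal not well above background, and its adjusted p was 0.0542.

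Of 15 barrier transport genes of vessels, all measured, 0 passed for SH-42 and 2 for SH-80, both lower. Slc16a1, the monocarboxylate carrier MCT1, lay at -0.35 ± 0.0718 (limma adjusted p = 0.0335). For Foxq1, a forkhead factor, Cy3 was not well above background (adjusted p = 0.0254). Under loess its Cy5 was on average at least 1.45-fold brighter. Apcdd1, an inhibitor of Wnt signalling, lay at 0.20 (adjusted p = 0.121), and Slc38a5, a glutamine carrier, at 0.43 (adjusted p = 0.124). Of 15 measured genes of other tight and adherens junctions (of 16 listed), 0 passed in either comparison. The nearest for SH-80 was Afdn, the nectin-linked scaffold afadin, at -0.30 ± 0.0793 (adjusted p = 0.0516), and for SH-42 Ctnnd1, which encodes the p120 catenin of cadherin complexes, at -0.35 (adjusted p = 0.18).

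Of 11 measured flow response genes (of 12), Nos3 alone passed for SH-80, and 0 passed for SH-42. Ptgs1, which encodes a cyclooxygenase, lay at 1.18 ± 0.464 for SH-80 (limma adjusted p = 0.127), with -1.59 on SH-42 replicate 1. The matricellular genes Ccn1 (0.89, adjusted p = 0.242) and Ccn2 (0.91, adjusted p = 0.29) lay at -2.01 and -2.28 on SH-42 replicate 1. Of 11 measured BMP and TGF beta genes (of 12), Bmpr2, the type II receptor for BMP ligands, passed for SH-80 as higher (0.40 ± 0.0898, adjusted p = 0.0387), and 0 passed for SH-42. Of 6 measured endothelial activation genes (of 8), 1 passed for SH-80. It was Selp, which encodes P-selectin (limma adjusted p = 0.0488). Its Cy3 was not well above background, and its Cy5 was on average at least 1.11-fold brighter under loess. Vcam1, a leukocyte adhesion molecule of activated endothelium, lay at 0.66 (adjusted p = 0.289).

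**Figure D4:**
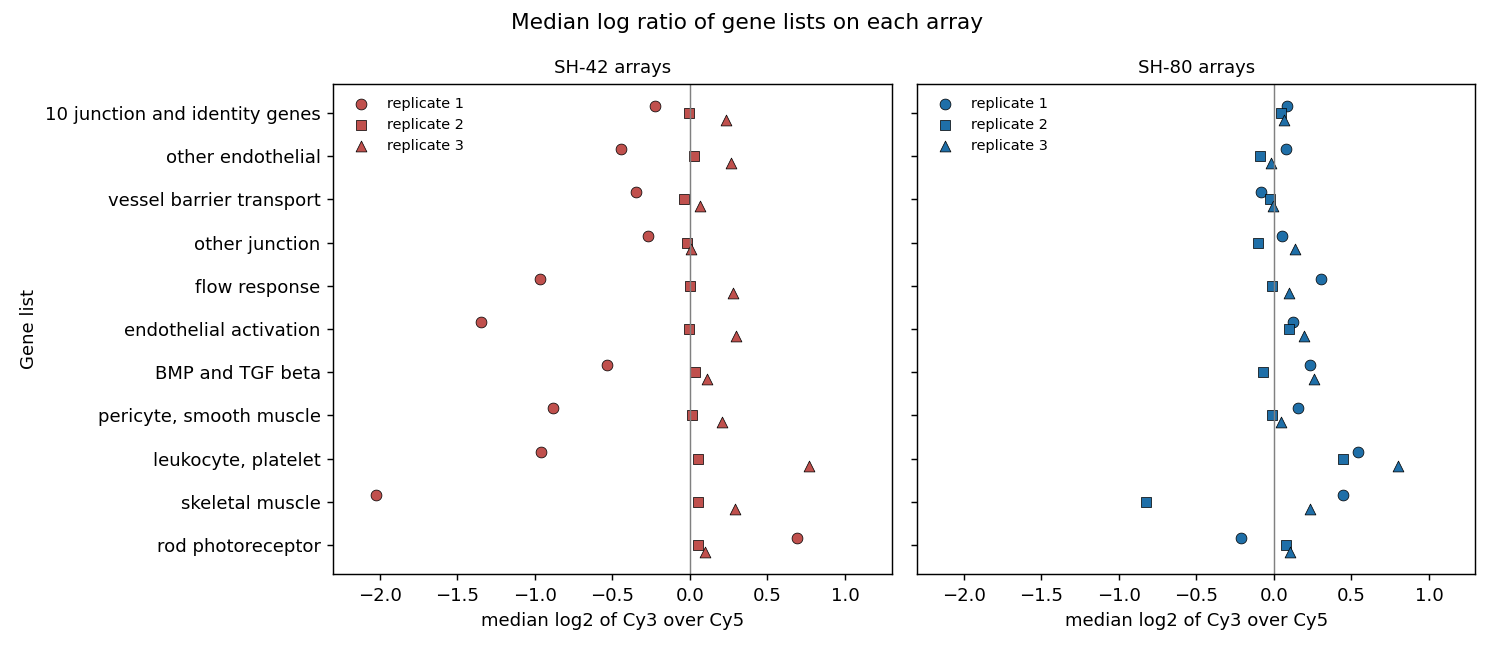
Median log2 of Cy3 over Cy5 (x axis) over the measured genes of the lists named on the y axis on the 3 SH-42 arrays (left panel) and the 3 SH-80 arrays (right panel), with marker shape by replicate. On SH-42 replicate 1 the 10 genes lie at -0.23, skeletal muscle at -2.03 and rod genes at 0.69.

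Markers of other cells also differed between arrays, chiefly in Cy5. The mean Cy5 signal of the 10 genes was 8.53 to 8.91 log2 units on the SH-42 arrays and 8.62 to 8.68 on the SH-80 arrays, highest on SH-42 replicate 1. Pericyte and smooth muscle markers (11 measured of 13) had a mean Cy5 signal of 9.34 to 10.30 on the SH-42 arrays and 9.27 to 9.63 on the SH-80 arrays. Leukocyte and platelet markers (7 of 11) had 10.32 to 12.56 on the SH-42 arrays and 10.29 to 10.57 on the SH-80 arrays. Both were highest on SH-42 replicate 1, as were Muller glia and astrocyte markers. Skeletal muscle markers (9 of 10) reached 10.18 on both SH-42 replicate 1 and SH-80 replicate 2, with 7.81 to 8.09 on the other 4 arrays. Rod markers (6 of 6) were lowest on SH-42 replicate 1, at 15.53 against 16.05 to 16.34. In Cy3 the range over all 6 arrays was 8.66 to 8.75 for the members and 9.54 to 9.64 for pericyte markers. All 7 measured leukocyte and platelet markers were well above background in both channels of every array.

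Tests of these lists gave 0 calls for SH-42 and for SH-42 minus SH-80 in each of them. For SH-80, 0 passed among the pericyte, rod, skeletal muscle, choroid (4 measured) and lymphatic (3 measured) markers. Among leukocyte and platelet markers 5 of 7 were positive, with a list median of 0.60, and the 1 that passed was negative (Itgam at -0.58, limma adjusted p = 0.0294). Cd3e, also negative, lay at -0.27 (adjusted p = 0.0521). The platelet chemokine gene Pf4 lay at 2.797 (adjusted p = 0.116) and Tyrobp, a signalling adaptor of microglia, at 2.37 (adjusted p = 0.0731). Among glial markers 7 of 8 were positive, with a list median of 0.14, and the 1 that passed was the negative one, Glul, the glutamine synthetase of Muller glia (-0.59, adjusted p = 0.0325). Gfap, the filament gene of reactive glia, lay at 1.29 (adjusted p = 0.142). Among red cell markers 1 of 4 passed, Slc4a1, with Cy3 not well above background. Pigment epithelium markers, of the epithelium that shares Tjp1 and Ocln, had a positive median ratio on all 6 arrays (0.12 to 1.18 on the SH-42 arrays and 0.43 to 0.97 on the SH-80 arrays), and 1 of 7 passed, Rgr (0.67, adjusted p = 0.0485). Lens markers had a median ratio of 0.58 to 2.14 on the SH-42 arrays and 1.47 to 3.36 on the SH-80 arrays, and 8 of 12 passed for SH-80, all higher. The part of these other cells in the members' ratios was not tested.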

How the data were processed

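Retinal RNA of mice given SH-42, SH-80 or PBS was measured on 6 dual-colour Agilent arrays. Per the file headers, the authors' scanner files hold the intensity of each spot and its background, processed intensity and a log10 ratio of processed red over green, made with version 11.0.1.1 of Agilent Feature Extraction (version 9.3.2.1 per the submitters' processing notes). The authors' deposited value table holds log2 ratios that matched processed Cy5 over Cy3 plus a constant per array (r of 0.9997 to 0.9999). Its column medians were -0.0531, -0.0606 and -0.0612 for SH-42 and -0.0611, -0.0464 and -0.0754 for SH-80. Its scale and centring were thus read from the values, and whether Cy5 over Cy3 is control over compound is unknown.

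Median intensities were corrected by normexp (offset 50) and normalized by loess within arrays. Control spots had no weight in the loess, and outlier spots (0.424%) were dropped. Of 39429 probes, 66.1% matched a RefSeq symbol, and 9977 were removed for too little signal above background (kept if present on 3 arrays in any channel). The brightest probe stood for a gene. The model of limma 3.58.1 (R 4.3.3) had 1 coefficient per compound over all 6 arrays, two-sided, with Benjamini-Hochberg adjustment over 24075 genes. Channel levels were taken after Aquantile scaling. A bound sets the mean of the bright channel against the higher of the dim signal and the lowest signal above background. Bounds were computed under loess only, concern the mean of the arrays measured and carry no sampling error. Precision is limited by there being 3 arrays for each compound. The model was tested on simulated data.

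The 10 genes and the other lists were chosen with earlier results of these data known. All 10 are named, and of other lists up to 4 genes of smallest p. Alternatives covered background, dye normalization, scaling, source of values, probe filter, probe summary, slide, replicate number and leaving out arrays.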

Additional observations from a re-analysis of the deposited data

How the results depend on the processing

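SH-42 minus SH-80 had 0 of 10 members past the threshold under every alternative run. For SH-42 against control the count stayed at 0 except without background correction (1, Pecam1), with the scanner's processed signals (3, Cldn5, Pecam1 and Ocln), with median centring (2, Tie1 and Tjp1) and with the deposited value table (2, Pecam1 and Ocln). Of all genes, 13.2%, 13.4%, 37.6% and 18% passed for SH-42 in these settings, in that order. For SH-80 against control, 2 in the report, it was 0 with normexp offset 0, median centring, scale normalization and slide as a fixed or a random block, 1 with processed signals (Cldn5) and with the strict filter (Pecam1, 8 members measured), and 5 on the SH-80 arrays alone (Cldn5, Pecam1, Tie1, Ocln and Klf2). The deposited value table also gave 2 members, but Pecam1 and Ocln, with 23.1% of all genes. Leaving out 1 array gave 0 to 3 for SH-80 and 0 throughout for SH-42 and for SH-42 minus SH-80. The cause of these changes was not tested. Cldn5 stayed positive (0.26 to 0.58 for SH-80, 0.072 to 0.66 for SH-42) and Pecam1 negative (-0.38 to -0.21 and -0.53 to -0.15) in all 19 alternatives of each comparison.

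Over all genes the SH-80 count of 3538 (31.4% higher) became 641 with scale normalization, 2101 with the strict filter, 9186 on the SH-80 arrays alone (41.7% higher), 5568 with the deposited value table (14.9% higher), 5145 with no filter (43.9% higher), 0 with slide as a fixed block (limma, 2986 unadjusted), and 0 to 9341 when 1 array was left out (9341 without SH-42 replicate 1, 0 without any 1 SH-80 array, and 2259 without replicate 2 of SH-42). The SH-42 count of 144 (9.03% higher) became 9060 with median centring (19.1% higher), 3184 without background correction (36.6% higher), 3218 with processed signals (31.3% higher), 4324 with the deposited value table (18.2% higher), 77 with the mean of probes, 4 with scale normalization (0% higher), 0 with offset 0, slide as a fixed block or the SH-42 arrays alone (limma, 5301, 5388 and 2377 unadjusted), and 0 to 438 when 1 array was left out. Median centring moved the median of all genes to -0.25 for SH-42 and -0.15 for SH-80.

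Signs that turned were all of values that had not passed. With median centring Ocln lay at 0.079 for SH-42 and 0.13 for SH-80, Plvap at -0.11 for SH-80, and Tjp1 at -0.12 for SH-42 minus SH-80. With slide as a fixed block, SH-80 gave -0.38 for Cdh5, -0.051 for Tie1, 0.0068 for Esam, -0.082 for Eng and -0.14 for Plvap, and Plvap lay at 0.0034 for SH-42. All SH-80 arrays shared a slide, so the shifts of these SH-80 values came from the SH-42 arrays alone. With that block, as within slide 2, SH-42 minus SH-80 was 0.23 for Cldn5, 0.16 for Cdh5, 0.11 for Klf2, 0.18 for Eng and 0.14 for Plvap. In SH-42 minus SH-80, Cldn5 lay at 0.068 with processed signals, 0.25 with scale normalization and 0.037 with the deposited value table. Pecam1 lay at -0.055 without background correction, -0.11 with processed signals and -0.14 with the deposited value table, and Tjp1 at -0.12 with scale normalization and -0.013 with that table. The mean of probes put Plvap at -0.030 for SH-80. Leaving out 1 array gave SH-42 ranges of -0.67 to 0.11 for Cdh5, -0.11 to 0.30 for Klf2, -0.14 to 0.19 for Eng and -0.23 to 0.12 for Plvap. For SH-42 minus SH-80 the ranges were -0.26 to 0.069 for Cldn5, -0.72 to 0.047 for Cdh5, -0.13 to 0.10 for Tie1, -0.13 to 0.032 for Ocln, -0.29 to 0.038 for Eng and -0.33 to 0.022 for Plvap.

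Replicate numbers were shared by SH-42 and SH-80 arrays. Deviations from the group mean correlated at -0.153, -0.431 and 0.181 for same-numbered arrays, and at -0.301 to 0.345 for differently numbered arrays. Deviations around a mean of 3 arrays depend on each other, so these values cannot decide whether same-numbered arrays shared a control pool. With a replicate block 0 of 10 members passed for SH-80 and 0 for SH-42 (limma, 3 of 10 unadjusted in each), and 0 of all genes in either. Signal limits Ocln and Tie1, whose Cy3 was at or near background. Pecam1, Cdh5 and Eng were well above background but also low in Cy3. Their lowest Cy3 signals were 7.73, 7.68 and 7.75, against a highest of 7.51 for Tie1.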

Other observations

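By a fixed rule, the genes with a symbol whose log2 ratios over the 6 arrays lay nearest to those of 3 members, by root mean square difference, were drawn from 15914 others. For Cldn5 they were Mpdz (0.104), which encodes a PDZ scaffold found at tight junctions, Ap2b1 (0.113) and H2ax (0.131), and the nearest member was Klf2 (0.236), at rank 164. For Plvap they were Slain2 (0.0248), Nasp (0.0529) and H2bc4 (0.0533), and the nearest member was Eng (0.115), at rank 275. For Pecam1 they were Vmn2r97 (0.034), Olfr319 (0.0386) and Olfr1062 (0.0394), which encode receptors of the vomeronasal organ and of olfaction, and the nearest member was Ocln (0.121), at rank 619. With 6 arrays and so many genes, a near match to any pattern is easily found.

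Mpdz lay at 0.22, 0.48 and 0.68 on the SH-42 arrays and 0.51, 0.50 and 0.54 on the SH-80 arrays. Vmn2r97 lay at -0.24, -0.033 and -0.20 on the SH-42 arrays and -0.31, -0.24 and -0.21 on the SH-80 arrays. Both were picked for their likeness to Cldn5 and to Pecam1 on these same 6 arrays. That they share the signs of those members thus follows from the choice, and no link between the genes was tested.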
